A study of Mus musculus with 3 samples.

Results

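The genes described here code for the subunits of respiratory chain complexes I to IV that are made from nuclear DNA. They were chosen by symbol alone, as all genes whose symbol starts with Ndufa, Ndufb, Ndufc, Ndufs or Ndufv and a number, with Uqcr or with Cox4 to Cox8, together with Sdha, Sdhb, Sdhc, Sdhd and Cyc1. No expression value entered the choice. Of 20660 genes that could be named on the arrays, 68 met the rule, and they were measured by 87 probes. Complex I was represented by 35 genes, complex II by 4, complex III by 9 and complex IV by 20. Ndufa4 and Ndufa4l2, named after complex I, were counted with complex IV, where the Ndufa4 protein is now placed. Of 12 further symbols of the gene table that meet the rule, 9 are pseudogenes and 3 (Ndufb1, Ndufb4b and Ndufb4c) are protein-coding, and none of the 12 could be matched to a probe.

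The cells were NIH3T3, a mouse fibroblast line, labelled WT for cell type. They were grown to confluency and collected at 24 h, after culture without additions (None), with 20 µM AR7 or with 20 µM BMS614. AR7 is a small molecule that binds retinoic acid receptor alpha and activates chaperone-mediated autophagy, the breakdown of single cytosolic proteins in lysosomes, and BMS614 is a selective antagonist of the same receptor. Both compounds were given in DMSO, whereas the None cells are described as untreated, so that vehicle and compound cannot be told apart. One line was used. Values are relative to the other genes of an array, so that fewer cells and less RNA per cell cannot be told apart. With 1 array per condition, differences have no replicate check and carry no p-value.

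The respiratory chain moves electrons from NADH and succinate to oxygen and pumps protons across the inner mitochondrial membrane, and ATP synthase uses the proton gradient to make ATP. Complex I oxidises NADH, complex II oxidises succinate, complex III passes electrons from ubiquinol to cytochrome c and complex IV reduces oxygen. Most subunits of complexes I, III and IV and all those of complex II come from nuclear genes, while a few hydrophobic ones are coded by mitochondrial DNA. The nuclear set is known to be transcribed at high and rather even rates in most tissues, with NRF1, GABPA and YY1 acting at many of its promoters and the PGC-1 coactivators raising it under energy demand.

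The question put to the arrays was whether either compound moved these genes, and the values show little movement. Intensities are given as normalized log2 intensity after the RMA background, quantile normalization over the 3 arrays and averaging of the spots of a probe, so a difference of 1 is a 2-fold difference. A gene is represented by its brightest probe. The technical error is the standard deviation (SD) of the difference between 2 arrays over spots of 1 probe, estimated on 267 probes that every array carries at 10 positions, and it holds neither culture nor labelling variation. At the signal level of most subunit genes it was 0.049 for AR7 minus None, 0.045 for BMS614 minus None and 0.037 for AR7 minus BMS614. At the lowest signal level it was 0.43, 0.35 and 0.39.

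Each array holds 59305 spots for 55681 probes. The scanner software called between 55.4% and 61.8% of the probes well above background, with the None array lowest and the BMS614 array highest. Median spot intensities had 75th percentiles of 692 for None, 780.5 for AR7 and 909 for BMS614. All 11 fibroblast markers were well above background on each array, although Col3a1 (5.21 to 5.55) and Col5a2 (7.15 to 7.65) were dim. Of other cell types, 2 of 5 epithelial, 3 to 5 of 5 haematopoietic, 2 to 3 of 4 endothelial, 3 of 7 muscle and 3 of 4 neuronal markers were called on the arrays. The summed log2 signal of the fibroblast list lay between 20.15 and 20.24, and those of the epithelial, haematopoietic, endothelial, muscle and neuronal lists lay between 7.55 and 8.03, 14.46 and 14.79, 13.11 and 13.26, 9.02 and 9.11, and 14.04 and 14.37. The epithelial marker Epcam, the muscle enzyme gene Ckm and the endothelial gene Tek were called well above background by none of the arrays. Other markers of these lists were called on each array, among them Cdh1 and Krt8 (epithelial), Pecam1 and Kdr (endothelial) and Tnnt2, Myh6 and Myh7 (muscle). The brightest were Itgam (haematopoietic, 14.38 to 14.71), Snap25 (neuronal, 13.71 to 14.11) and Kdr (13.08 to 13.23). The part of these markers in the results was not tested.

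Of the 68 subunit genes, 66 were well above background on all 3 arrays. Cox8b and Cox8c, made mainly in striated muscle and in testis, were not called on any array, with log2 intensities of 3.56 to 3.70 for Cox8b and 3.18 to 3.61 for Cox8c. No subunit probe carried an outlier mark or a saturated spot. The plot of log2 intensity by array shows most of the 68 genes as nearly level lines. Dim complex IV isoforms slope more, such as Ndufa4l2, from 5.58 on None to 4.96 on BMS614.

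**Figure D1:**
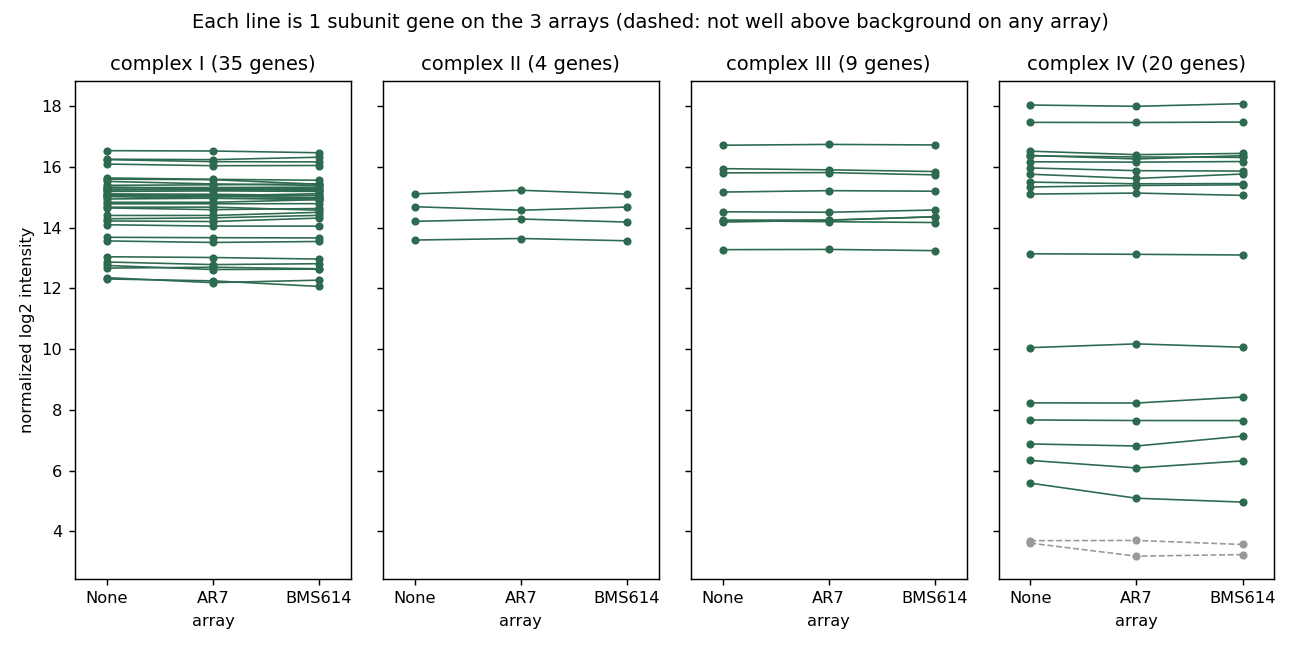
Normalized log2 intensity (vertical axis) of the 68 subunit genes on the None, AR7 and BMS614 arrays (horizontal axis), in 1 panel per complex and with 1 line per gene. The lines of complexes I, II and III run nearly level, the 2 dashed lines are Cox8b and Cox8c, and heights of different lines are readings of different probes and are not comparable as RNA levels.

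With AR7, the median log2 difference from None over the 66 genes was -0.017, beside -0.005 over all 13805 named genes that all 3 arrays detected above background. With BMS614 it was -0.020, beside -0.002. Between the compounds, AR7 minus BMS614 had a median of -0.005, beside 0. The middle 50% of the subunit genes spanned 0.062, 0.075 and 0.11 log2 units in the 3 comparisons, against 0.16, 0.19 and 0.18 for all genes. Bright probes vary less, so the same was computed for genes with a mean log2 intensity of at least 12. Of the subunits, 60 passed and spanned 0.063, 0.074 and 0.086, against 0.10, 0.12 and 0.13 for 3796 genes. The subunit genes thus lay in a narrower band than bright genes as a whole, as a description of 3 arrays.

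**Figure D2:**
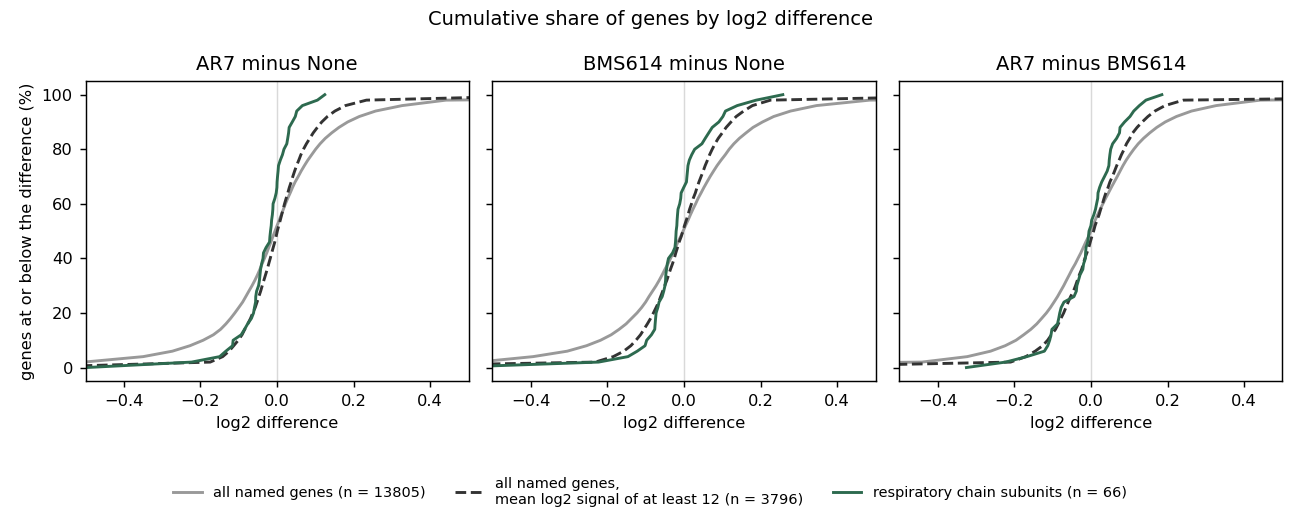
Cumulative share of genes (vertical axis, percent) at or below a log2 difference (horizontal axis, cropped to 0.5 either side of 0) for the 66 subunit genes, all 13805 named genes and the 3796 of them with a mean log2 intensity of at least 12. The curve of the subunit genes is steeper than both others for AR7 minus None and BMS614 minus None.

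More subunit genes lay below 0 than above it with each compound. With AR7, 44 were lower than on the None array, 21 were higher and Ndufv2 was equal. With BMS614, 43 were lower, 22 were higher and Ndufa12 was equal. Of all 13805 genes, 7127 were lower with AR7 and 6989 with BMS614, and of the 3796 bright genes 49.0% and 51.3% were. Both comparisons share the None array. Between the compounds, 32 were above and 34 below 0 for AR7 minus BMS614. These splits depended on the scaling: with the RMA background and scaling to the 75th percentile in place of quantile normalization, 56 were lower with AR7 and 52 with BMS614, and 58.1% and 59.8% of the 3796 bright genes were also below 0. All these directions are relative to the other genes of an array. On the scale of the spike-in controls, the median of all genes itself moved by 0.19 with AR7 and 0.34 with BMS614, and before centring on it 64 and 65 of the 66 subunit genes lay above 0, with medians of 0.16 and 0.28.

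A difference was counted when it passed 2 SD of repeated spots. With AR7, 1 subunit gene was higher and 6 were lower in this sense, 1.52% and 9.09% of the 66, whereas 9.37% of all genes were higher and 9.19% lower. With BMS614, 5 were higher and 7 lower, or 7.58% and 10.6%, with 13.3% and 12.8% among all genes. In AR7 minus BMS614, 9 were higher and 13 lower, or 13.6% and 19.7%, with 14.4% and 14.1% among all genes. Among bright genes only, 11.7%, 20.0% and 36.7% of the subunits passed 2 SD in either direction in the 3 comparisons, beside 21.2%, 31.6% and 41.0% of all bright genes. In the comparisons with None, the share of subunit genes called in either direction was therefore below the background. With AR7 that came from the higher calls, which among bright genes were 1.67% beside 11.8%. The lower share with AR7 was near that of all genes, and among bright genes it was 10.0% beside 9.35%. These shares depended on the scaling. With the RMA background and scaling to the 75th percentile, 0 were higher and 9 lower with AR7, and 2 were higher and 17 lower with BMS614. The lower shares were 13.6% and 25.8%, beside 9.71% and 13.9% of all genes. The higher shares were 0% and 3.03%, beside 9.44% and 13.5%. With the scanner's processed signal scaled to the 75th percentile, 0 and 20 were called with AR7 and 2 and 19 with BMS614. With AR7 the lower share was then 30.3% beside 14.4% of all genes, and with BMS614 it was 28.8% beside 16.85%.

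A fold rule was counted as well. At least 1.2-fold either way, 1 subunit gene differed with AR7 and 1 with BMS614, beside 12.1% and 14.3% of all genes. Both were Ndufa4l2, whose difference was within 2 SD of its large spot error. In AR7 minus BMS614 the 1 gene was Cox7a1, beside 12% of all genes, and it too was within 2 SD. Among genes with a mean log2 intensity of at least 12, 0 of 60 subunits passed the fold rule in each comparison. Of the 3796 bright genes, 53 were higher and 11 lower with AR7, 46 and 48 with BMS614, and 62 and 36 in AR7 minus BMS614. The all-gene shares thus came mostly from dimmer genes and are not a like background for the mostly bright subunits. No subunit gene reached 2-fold. Without the 6 isoforms known to be restricted to certain tissues or induced in low oxygen, differences ranged from -0.17 (Ndufs8) to 0.12 (Sdhb) with AR7 and reached 0.18 (Cyc1) with BMS614.

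**Figure D3:**
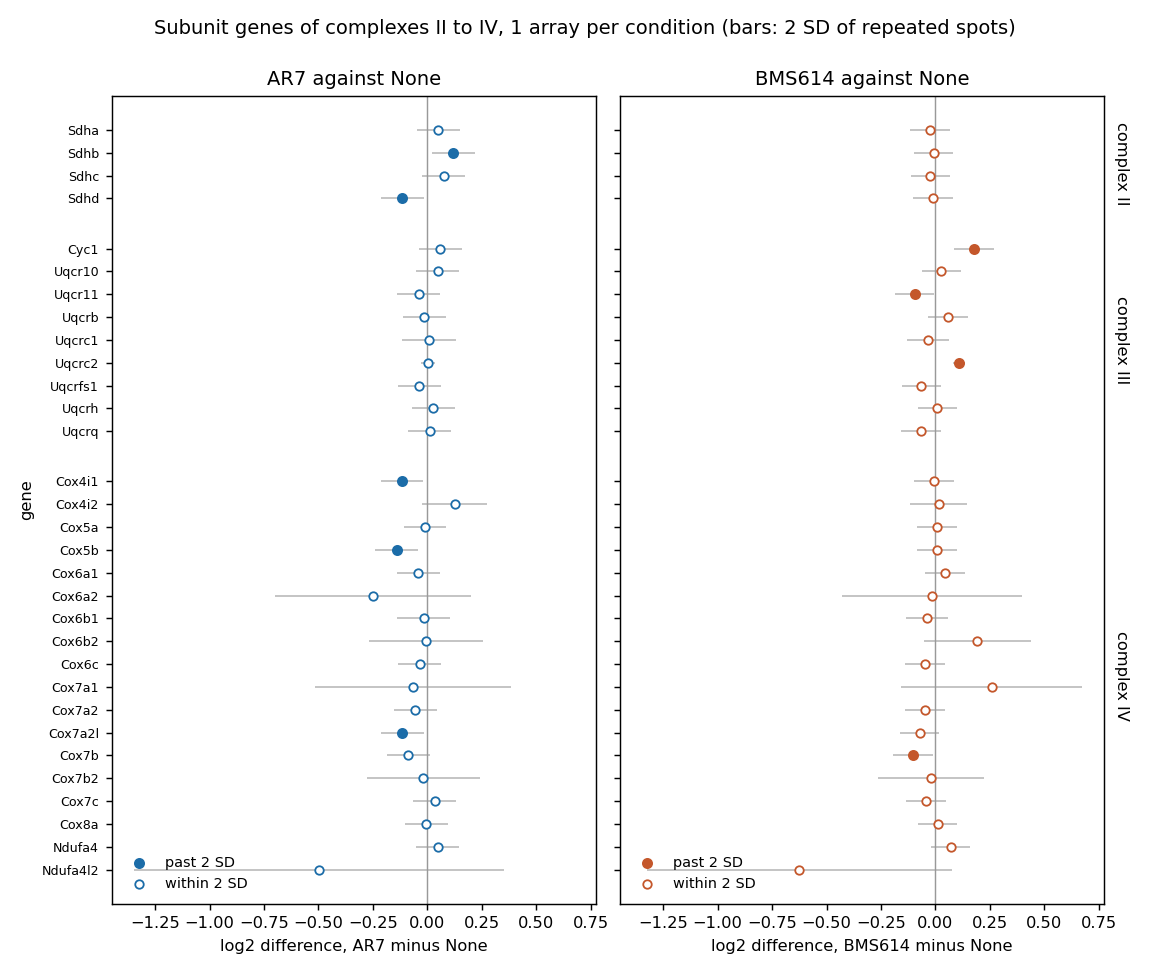
Log2 difference of AR7 minus None (left) and BMS614 minus None (right) on the horizontal axis for the 31 measured subunit genes of complexes II, III and IV, with bars of 2 SD of repeated spots. Filled points, 5 for AR7 and 4 for BMS614, lie past 2 SD, and the widest bars belong to dim isoforms of complex IV such as Ndufa4l2.

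Promoter sequences from RefSeq, GRCm38.p6, were found for 53 of the 68 genes, as 55 windows of 250 bases before to 50 after the start. They are shown because the same regulators are thought to serve many of these genes. Letters searched were CGCANGCGC for NRF1, CCGGAAG for GABPA and AAGATGGCG for YY1, on both strands, and overlapping matches were allowed. The NRF1 letters were in 16 of the 55 windows (29.1%), against 6.31% of 32851 windows of all genes. The GABPA letters were in 11 (20.0%) against 8.86%, and the YY1 letters in 5 (9.1%) against 1.40%. The subunit windows were also richer in G and C, with a median of 57.3% against 52.7%. At least 1 of the motifs was found for 27 genes, none for 26 and all 3 for none. Those with the NRF1 letters were 9 of 31 complex I genes, 2 of 3 complex II genes, 3 of 5 complex III genes and 1 of 14 complex IV genes. Matches for 4 genes that passed 2 SD on an array are given as 30 bases on the strand of the gene, with the motif or its reverse complement in capitals.
Ndufa11, NRF1, chr17:56717693-56717722, plus strand: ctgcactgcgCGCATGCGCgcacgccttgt
Ndufb6, GABPA, chr4:40279635-40279664, minus strand: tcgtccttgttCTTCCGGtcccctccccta
Sdhd, NRF1, chr9:50603908-50603937, minus strand: cgctggggtgCGCACGCGCggtggcagcgc
Sdhd, GABPA, chr9:50603877-50603906, minus strand: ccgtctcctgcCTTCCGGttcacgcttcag
Uqcr11, GABPA, chr10:80406869-80406898, minus strand: ttctctcctccCCGGAAGtagatgtcaatg
All 5 stretches lie upstream of the start, and a match of letters is not a measured binding site. Over measured genes with a window, the median difference with AR7 was -0.013 for 27 genes with a motif and -0.037 for 25 without, and with BMS614 it was -0.021 and -0.022.

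Complex I, the entry point for NADH, had a median difference of -0.019 with AR7 and -0.022 with BMS614 over 35 genes, 25 of them below 0 with each compound. Past 2 SD were 2 lower genes with AR7, and 3 higher and 5 lower with BMS614. That is 5.71% and 22.9% of the genes, beside 18.6% and 26.1% of all genes past 2 SD in either direction. The core subunits that carry flavin or iron-sulfur clusters are taken first. Ndufs8, which holds a pair of iron-sulfur clusters near the quinone site, read 12.36 on the None array, 12.19 on AR7 and 12.27 on BMS614. The AR7 array was lowest, at 0.892 times None (log2 difference -0.17, SD 0.052), and it was also past 2 SD below BMS614.

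Ndufs1, the largest iron-sulfur subunit of the NADH module, read 14.22, 14.20 and 14.32 on None, AR7 and BMS614. Ndufv2, another iron-sulfur subunit of that module, read 14.40, 14.40 and 14.51. Both were higher with BMS614, by 0.094 and 0.10 (SD 0.045), whereas None and AR7 were within 1 SD of each other. Ndufv1, which binds NADH and the flavin, read 15.40, 15.41 and 15.45 and stayed within 2 SD in all comparisons. Ndufs3, a structural core subunit, read 14.84, 14.84 and 14.93, and Ndufs7, which holds the last iron-sulfur cluster before the quinone, read 14.79 on all 3 arrays. Ndufs3 with BMS614 was just inside 2 SD (0.088, SD 0.045), and AR7 was below BMS614 by more than 2 SD.

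Of the accessory subunits of complex I, Ndufa11, a membrane-arm protein that contacts complex III in supercomplexes, read 12.76 on None, 12.62 on AR7 and 12.64 on BMS614. Both compounds were below None by more than 2 SD (-0.13, SD 0.062, and -0.12, SD 0.048). It was the only subunit gene whose None array lay above both others by this measure, beside 3.42% of all genes. Ndufc1, a small membrane-arm subunit, read 15.60, 15.58 and 15.43, so that only BMS614 was low (-0.17, SD 0.045). Ndufs6, a zinc-binding subunit needed late in assembly, read 15.53, 15.44 and 15.39. It was lower with BMS614 (-0.13), and with AR7 its difference of -0.083 was inside 2 SD. Ndufb6, another membrane-arm subunit, read 14.29, 14.33 and 14.41 and was higher with BMS614 (0.11, SD 0.045), although its other probe differed by 0.021 only. Ndufv3, an accessory subunit of the NADH module, read 14.68, 14.68 and 14.58 and was lower with BMS614 (-0.099, SD 0.045), while its other probe differed by 0.004. With AR7 the highest complex I value after Ndufb6 (0.031) was that of Ndufa3 (0.030), with 15.24 on None, 15.27 on AR7 and 15.22 on BMS614. Ndufb2 (0.073) and Ndufb8 (-0.080), both in the membrane arm, were also past 2 SD in AR7 minus BMS614.

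Complex II is succinate dehydrogenase, and all 4 of its subunits are nuclear. Sdha, the flavoprotein that oxidises succinate, read 13.59 on None, 13.65 on AR7 and 13.57 on BMS614. Sdhb, the iron-sulfur subunit, read 15.12, 15.24 and 15.11. Sdhc and Sdhd, the membrane anchors, read 14.21, 14.29 and 14.19, and 14.69, 14.58 and 14.68. The AR7 array was thus highest for Sdha, Sdhb and Sdhc and lowest for Sdhd. Sdhb with AR7 was higher than None (1.09-fold, 0.12, SD 0.049) and Sdhd was lower (0.923 times, -0.11, SD 0.049), while Sdha (0.050) and Sdhc (0.076) were within 2 SD. With BMS614 the brightest probes of all 4 were within 1 SD of None, at -0.024, -0.008, -0.023 and -0.011. In AR7 minus BMS614 all 4 passed 2 SD, 3 higher and Sdhd lower (-0.10). Of all genes, 28.4% passed 2 SD in that comparison, and 18.6% did with AR7, where 50% of the 4 passed. The probes of a gene disagreed here. The other Sdhb probe gave -0.019 with AR7 and -0.047 in AR7 minus BMS614, and the other Sdhc probe gave -0.081 and -0.22, where the brighter one gave 0.076 and 0.099. With BMS614 that other Sdhc probe was higher, by 0.14 (SD 0.048). Averaged over its probes, Sdhc lay at -0.062 in AR7 minus BMS614. The complex II median in that comparison was 0.087 by the brightest probes and -0.011 with probes averaged. The higher values of Sdhb and Sdhc with AR7 thus rest on 1 probe each. Sdhd, whose promoter holds both printed motifs, has a single probe.

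Complex III had medians of 0.008 with AR7 and 0.009 with BMS614 over 9 genes, and none passed 2 SD with AR7. The sign of both medians depended on the scaling, with -0.057 and -0.054 for the processed signal scaled to the 75th percentile and -0.022 and -0.046 for the RMA background with that scaling. With BMS614, Cyc1 and Uqcrc2 were higher and Uqcr11 was lower. That is 33.3% of the 9 genes, beside 26.1% of all genes past 2 SD in either direction. Cyc1, the heme-bearing cytochrome c1, read 14.19 on None, 14.25 on AR7 and 14.36 on BMS614. The BMS614 array was 1.13-fold above None (0.18, SD 0.045) and above AR7 by more than 2 SD, and this was the highest value against None among the 60 genes without the restricted isoforms. Uqcrc2, a core protein of the matrix domain, is the only subunit gene with a probe printed 10 times. Its spots read 14.08 to 14.48 on None (median 14.28), 14.06 to 14.46 on AR7 (median 14.28) and 14.18 to 14.51 on BMS614 (median 14.38). Spot by spot, BMS614 was above None at 10 of 10 positions, by 0.031 to 0.16 with a mean of 0.11 (SD over spots 0.037). AR7 was above None at 5 and below it at 5, with a mean of 0.002 (SD over spots 0.027). AR7 was below BMS614 at 10 of 10 positions, by a mean of -0.11 (SD over spots 0.029). The difference of the BMS614 array, 1.08-fold in size, is therefore larger than the error between spots, and the arrays still stand for 1 culture each.

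Uqcrfs1, the Rieske iron-sulfur protein, read 14.24, 14.20 and 14.17 on None, AR7 and BMS614, and Uqcrc1, the partner of Uqcrc2, read 13.28, 13.29 and 13.25. Neither passed 2 SD. Uqcr11, a small accessory subunit, read 15.95, 15.91 and 15.85 and was lower with BMS614 (-0.095, SD 0.045). Uqcrq, a subunit that binds ubiquinone, read 15.81, 15.82 and 15.74, and Uqcr10, a small subunit next to cytochrome c1, read 15.17, 15.22 and 15.20. Uqcrq (0.077) and the accessory subunit gene Uqcrb (-0.073) passed 2 SD in AR7 minus BMS614, but the other Uqcrb probes gave 0.039 and -0.021. With BMS614 the Uqcrb probes gave 0.058, -0.098 and 0.00032. The second Uqcrq probe differed by 0.15 with BMS614 where the brighter one differed by -0.067.

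In complex IV the common isoforms lay mostly below None with AR7. The median over 18 genes was -0.038 with AR7, with 15 below 0, and -0.011 with BMS614, with 10 below 0. The direction with AR7 held under 6 other scalings and probe rules, and under spike-in scaling relative to all genes, with 14 or 15 of 18 below 0. Cox4i1, the largest nuclear subunit, read 16.38 on None, 16.27 on AR7 and 16.38 on BMS614. Cox5b, the zinc-binding subunit, read 15.76, 15.62 and 15.77. In both genes only the AR7 array was low, at 0.922 times None (-0.12, SD 0.049) and 0.908 times None (-0.14, SD 0.049), and BMS614 was within 1 SD of None. Cox5a, the subunit that sits beside Cox4i1, read 16.17, 16.16 and 16.18 and did not differ by more than 1 SD in any comparison.

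Cox7a2l, which helps join complexes III and IV, read 16.52, 16.41 and 16.45 and was lower with AR7 (-0.11, SD 0.049), while its other probes gave 0.019 and -0.047. Cox7b read 15.97, 15.88 and 15.87 and was lower with BMS614 (-0.10, SD 0.045), and with AR7 its value of -0.088 was within 2 SD. Neither gene was past 2 SD in AR7 minus BMS614. Cox6a1 read 18.04, 18.00 and 18.09, so that the AR7 array was below BMS614 (-0.087, SD 0.037). That direction turned to 0.011 with the RMA background and scaling to the 75th percentile, and to 0.014 with scaling on the spike-in controls. Cox7a2 read 15.50, 15.45 and 15.46, Cox6b1 read 13.14, 13.12 and 13.10, and Cox8a read 17.47, 17.47 and 17.48. Ndufa4, the subunit once assigned to complex I, read 15.34, 15.39 and 15.41. By their brightest probes, these 4 common isoforms were within 2 SD in all comparisons. The other Cox8a probe, also bright, was not. It read 16.44, 16.33 and 16.61, with -0.11 for AR7 (SD 0.049), 0.17 for BMS614 (SD 0.045) and -0.28 for AR7 minus BMS614 (SD 0.037). Cox7c, a subunit with no isoform, passed 2 SD in AR7 minus BMS614 only (0.076, SD 0.037), where its other probes gave -0.026 and 0.19.

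The restricted isoforms of complex IV are dim in these fibroblasts, apart from Cox4i2. Ndufa4l2, the counterpart of Ndufa4 that is induced in low oxygen, read 5.58 on None, 5.09 on AR7 and 4.96 on BMS614. Both compound arrays were below None, by -0.50 (SD 0.43) and -0.62 (SD 0.35), within 2 SD in both cases. Cox4i2, the lung-type counterpart of Cox4i1 and also oxygen-responsive, read 10.05, 10.17 and 10.06, and its difference of 0.12 with AR7 (SD 0.075) was within 2 SD. The heart and muscle isoforms Cox6a2 and Cox7a1 read 6.33, 6.08 and 6.32, and 6.88, 6.81 and 7.13. The testis isoforms Cox6b2 and Cox7b2 read 8.23, 8.22 and 8.42, and 7.67, 7.65 and 7.65. None of these 6 genes passed 2 SD in any comparison, with spot errors of 0.066 to 0.43, so a change of the size seen in the common isoforms was not detectable at this signal level.

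Genes in which 1 array stood apart from both others by more than 2 SD are counted next. The AR7 array stood above both others for Sdhb, and below both for Cox4i1, Cox5b, Ndufs8 and Sdhd. That is 1 and 4 of 66 genes, beside 3.69% and 3.86% of all genes. The BMS614 array stood above both for Cyc1, Ndufb6, Ndufs1, Ndufv2 and Uqcrc2, and below both for 3 genes, among them Ndufc1 and Ndufv3. That is 5 and 3 of 66, beside 6.21% and 6.75% of all genes. Ndufa11 was the only subunit gene past 2 SD in the same direction with both compounds, lower in each. That is 1 lower and 0 higher of 66, beside 3.42% and 4.48% of all genes. No subunit gene was past 2 SD in opposite directions with the compounds, and the share of all genes was not computed for this.

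Several probes were available for 15 of the genes, which gives an error that repeated spots do not. Within a gene, the differences of its probes spanned a median of 0.10 with AR7, 0.094 with BMS614 and 0.099 in AR7 minus BMS614. These spans are of the same order as the called differences themselves. The widest were 0.21 for Ndufb5 with AR7, 0.22 for Uqcrq with BMS614 and 0.32 for Sdhc in AR7 minus BMS614. Probes of a gene pointed in opposite directions, each by more than 1 SD, in 1, 2 and 4 genes. In some genes the brightest probe was within 2 SD while another was past it. These were Cox8a, Ndufb5 and Uqcrq with AR7, Cox8a, Sdhc, Uqcrb and Uqcrq with BMS614, and Cox8a, Ndufb5 and Uqcrh in AR7 minus BMS614. For the other Ndufb5 probe the values were -0.19 with AR7 and -0.17 in AR7 minus BMS614, and for the other Uqcrq probe 0.19 with AR7. Of the 7 genes called with AR7 5 have 1 probe, as have 10 of the 12 called with BMS614, so that no second probe bears on them.

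**Figure D4:**
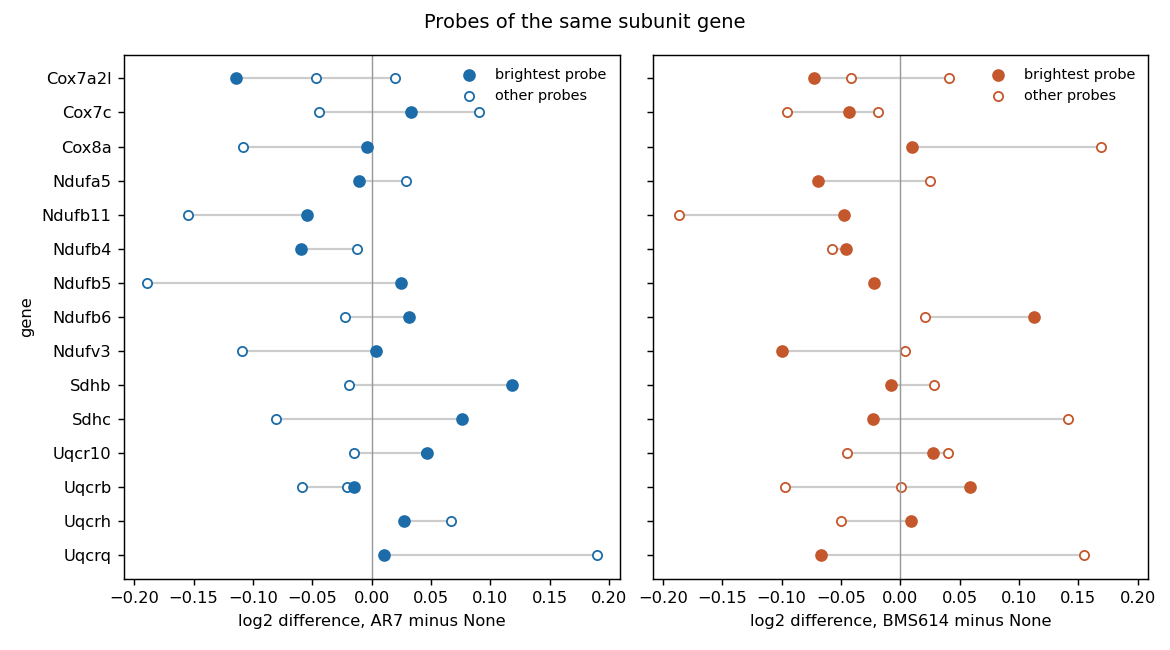
Log2 difference of AR7 minus None (left) and BMS614 minus None (right) on the horizontal axis for each probe of the 15 subunit genes with several probes, with filled points for the brightest probe and open points for the others. The probes of Ndufb5 (left) and Uqcrq (right) lie 0.21 and 0.22 apart.

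The genes that assemble the complexes, the neighbouring enzymes and the regulators were read from lists. Their counts past 2 SD stand beside 9.37% higher and 9.19% lower among all genes with AR7, and 13.3% and 12.8% with BMS614. Complex I assembly factors had a median of -0.017 with AR7 over 15 genes, with none higher and 1 lower past 2 SD, and of 0.038 with BMS614, with 2 higher and 3 lower. Complex II assembly factors had medians of -0.026 and -0.021 over 4 genes, with none called. Complex III assembly factors had medians of 0.019 and 0.024 over 5 of 6 genes listed, with none called with AR7 and 2 higher with BMS614. For complex IV assembly factors the medians over 18 of 20 genes listed were -0.041 and 0.010, with 4 lower with AR7, and 3 higher and 3 lower with BMS614. Among them, Cox10, the enzyme that makes heme O for complex IV, read 7.33 on None, 6.82 on AR7 and 6.70 on BMS614. Both compound arrays were lower, by -0.51 (SD 0.22) and -0.63 (SD 0.21), at a dim signal.

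ATP synthase subunits, which use the gradient, had medians of -0.026 and -0.014 over 16 of 17 genes listed, with 2 lower with AR7, and 3 higher and 2 lower with BMS614. Genes for cytochrome c and for making ubiquinone, the mobile carriers, had medians of -0.072 and -0.012 over 10 of 12 genes listed, with 1 higher and 2 lower with AR7 and 1 lower with BMS614. Tricarboxylic acid cycle enzymes, the source of NADH and succinate, had medians of -0.004 and 0.072 over 13 genes, with 1 lower with AR7, and 2 higher and 1 lower with BMS614. Import and channel proteins of the outer membrane had medians of -0.002 and -0.019 over 10 genes, with none called with AR7, and 2 higher and 2 lower with BMS614. Ndufab1, the acyl carrier protein that is also part of complex I and lies outside the symbol rule, read 10.71, 10.52 and 10.69 and was lower with AR7 (-0.19, SD 0.061). The medians of these lists thus ran from -0.072, for the mobile carriers with AR7, to 0.072, for the cycle enzymes with BMS614. The 13 mitochondrially coded subunits were not analysed here.

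Among 15 regulators of mitochondrial biogenesis, 2 were higher and 3 lower with AR7, and 1 was higher with BMS614. That is 33.3% and 6.67% of the list past 2 SD, beside 18.6% and 26.1% of all genes. Ppargc1a, the coactivator PGC-1 alpha, read 5.76 on None, 6.37 on AR7 and 5.95 on BMS614, and its value with AR7 was 0.61 above None (SD 0.22) at a dim signal. Ppargc1b, its close relative, read 7.54, 7.90 and 8.03, above None by 0.35 (SD 0.13) with AR7 and 0.48 (SD 0.12) with BMS614. Pprc1, the third member of that family, read 9.50, 9.28 and 9.46 and was lower with AR7 (-0.23, SD 0.085). Members of the one coactivator family thus differed in both directions with AR7. Tfam and Tfb1m, which serve transcription and ribosomes of mitochondria, were lower with AR7 as well, at 11.58, 11.42 and 11.64 (-0.16, SD 0.055) and at 10.49, 10.28 and 10.44 (-0.22, SD 0.061). The factors whose letters were searched in the promoters moved less. Nrf1 differed by -0.052 and -0.050, Gabpa by -0.037 and 0.074 and Yy1 by -0.047 and -0.047 with AR7 and BMS614, none past 2 SD.

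**Figure D5:**
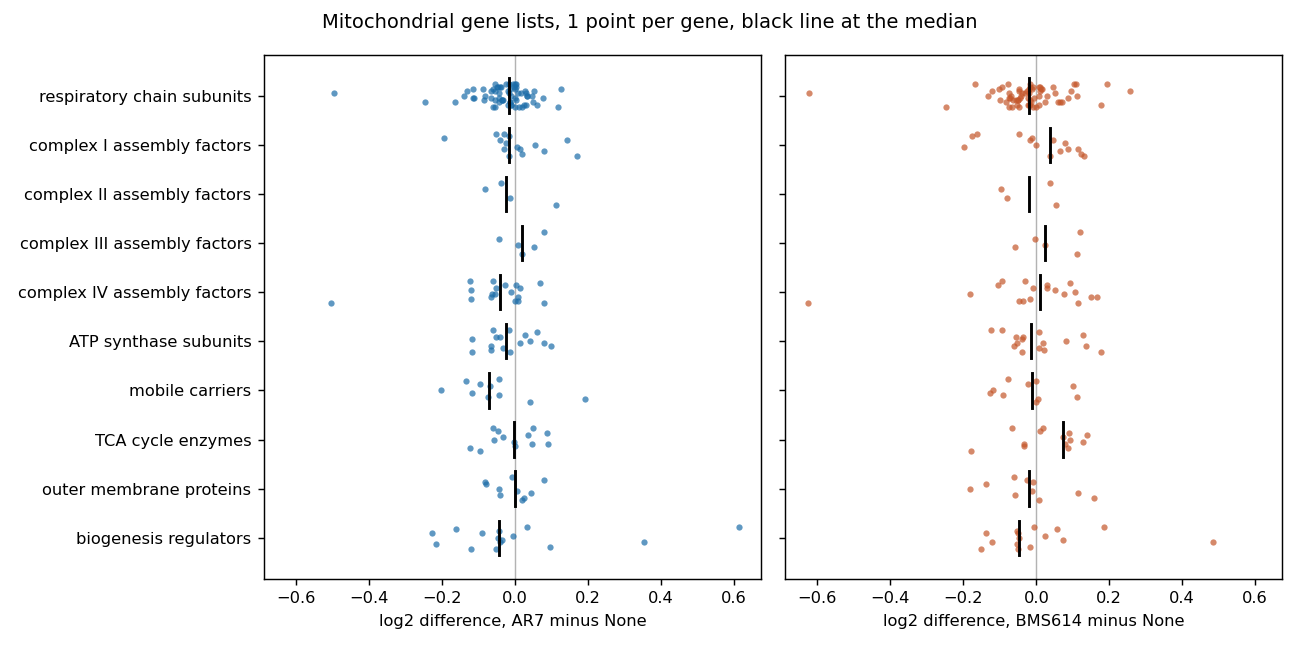
Log2 difference of AR7 minus None (left) and BMS614 minus None (right) on the horizontal axis for each gene of the subunit set and of 9 other mitochondrial gene lists, with a black line at the median of each list. The medians lie close to 0 and the far points are Ndufa4l2 and Cox10 below and Ppargc1a and Ppargc1b above.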

How the data were processed

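RNA of 3 NIH3T3 cultures, labelled with Cy3, was hybridized to one-colour Agilent arrays, and the arrays lie on 1 slide. Spot intensity values from Agilent Feature Extraction 10.7.3.1, per the file headers, were deposited by the authors without normalization between arrays, next to a table of values they had processed. That table is a straight-line function of background-subtracted intensity on a linear scale, with medians of 64.95 (None), 70.68 (AR7) and 67.45 (BMS614), and served as an alternative only, with values under 16 set to 16. The submitters' processing notes name oligo and RMA, without versions. Here the RMA convolution background was applied to median pixel intensity with limma 3.58.1 in R 4.3.3, then quantile normalization over the 3 arrays and log2. The median pixel intensity stands in for the mean, which the files used do not give. Controls and outlier spots were left out, and spots of a probe were averaged. The rest used Python 3.11.15, numpy 2.4.6, pandas 2.3.3 and matplotlib 3.10.9.

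Of 55681 probes, 27235 were named by RefSeq accession through a GRCm38.p6 gene table, and the brightest probe stands for a gene. A difference was counted past 2 SD of repeated spots, in 10 bins of signal and divided by the square root of the number of spots, or at 1.2-fold. The counting was tested on simulated data. Samples were grouped by the treatment in their labels. The number of arrays limits the precision. The genes named with values are the core subunits, the restricted isoforms with their common counterparts, and in each complex the 2 highest and 2 lowest differences of each comparison. A gene that these rules name enters the counts and medians but is not reported here by itself. Genes past 2 SD and other genes named besides these were chosen after their values were seen. The members and lists were chosen with earlier results of these data known. Alternatives covered background correction, scaling, the deposited table, probe averaging, filters on dim probes and thresholds.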

Additional observations from a re-analysis of the deposited data

How the results depend on the processing

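Medians of the subunit genes were below 0 with both compounds under the alternatives run, with spike-in scaling taken relative to all genes, from -0.072 to -0.015 with AR7 and from -0.054 to -0.019 with BMS614. The lowest with AR7, -0.072, came from processed signal with 75th percentile scaling. The median of AR7 minus BMS614 lay between -0.012 and 0.011, on either side of 0. Under spike-in scaling the all-gene median shifted by 0.19, 0.34 and -0.14 in the 3 comparisons, and its values are relative to that, so it is no separate check of direction. Before centring, its medians were 0.16, 0.28 and -0.13, and 6 of 7, 7 of 12 and 7 of 22 called genes had the opposite sign.

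The number of subunit genes past 2 SD was 7 with AR7, and it was 20 with the processed signal, 16 with the deposited table and 1 at 3 SD. With BMS614 it was 12, and it was 21 with the processed signal, 19 with the RMA background and 75th percentile scaling, 19 with spike-in scaling, 21 with the deposited table and 4 at 3 SD. Between the compounds it was 22, and 7 at 3 SD. As shares, AR7 had 30.3% with the processed signal and 24.2% with the deposited table, beside 24.25% and 18.4% of all genes. BMS614 had 31.8% with both, beside 31.6% and 25.6%. With the RMA background and 75th percentile scaling BMS614 had 28.8%, beside 27.4% of all genes. Calls split into 0 higher and 16 lower with AR7, 2 and 19 with BMS614 and 5 and 12 between the compounds with the deposited table, and into 0 and 8, 2 and 17, and 9 and 9 with spike-in scaling. With the deposited table the lower shares were 24.2%, 28.8% and 18.2%, beside 10.5%, 13.4% and 14.6% of all genes. The higher shares were 0%, 3.03% and 7.58%, beside 7.93%, 12.2% and 12.1%. With spike-in scaling the lower shares were 12.1%, 25.8% and 13.6%, beside 8.89%, 13.7% and 13.4%. At 1.2-fold, the count of 1 in each comparison became 0 with normexp or with a mean log2 intensity of at least 8 or 12. In AR7 minus None it was also 0 with the deposited table and at 1.5-fold, and 4 at 1.1-fold. In BMS614 minus None it was 2 with the processed signal, the RMA background and 75th percentile scaling, spike-in scaling, the deposited table and quantile-normalized background-subtracted signal, and 6 at 1.1-fold. In AR7 minus BMS614 it was 0 with the processed signal, the deposited table, the background-subtracted signal and at 1.5-fold, 2 with the RMA background and 75th percentile scaling or spike-in scaling, and 6 at 1.1-fold. The filters leave fewer genes; the cause of the other shifts was not tested.

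Of the calls, 5 of 7 with AR7 (Cox4i1, Cox5b, Ndufa11, Ndufs8 and Sdhd), 6 of 12 with BMS614 (among them Cox7b, Ndufc1, Ndufs6, Uqcr11 and Uqcrc2) and 9 of 22 in AR7 minus BMS614 were kept in all 7 other normalizations and probe rules, spike-in scaling centred. In these 7, no called gene changed sign against None. Between the compounds, Cox6a1 turned to 0.011 with 75th percentile scaling and 0.014 with spike-in scaling, and Ndufv3 to -0.0052 and Sdhc to -0.062 with the mean over probes.

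The background-subtracted signal and the filter at 12 were added after seeing the data. The mean pixel intensity could not be run, since the files used hold no such column. No paired analysis was possible because the conditions have 1 array apiece. Differences of dim isoforms are limited by spot error, and variation between cultures was not measured.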
